A study of Mus musculus with 6 samples.

Results

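The 6 genes Ms4a4a, Lilrb4a, Cd14, Ly6c1, Pf4 and Pros1, were followed in hepatic CD4 T cells of mice, among 750 genes counted with the nCounter assay, in which barcoded probes are hybridised to RNA and counted without amplification. They were chosen on how they differed between the groups, with earlier results of these libraries known, so that their differences are described here and not tested. The control group held 3 libraries labelled Chow and the MASH group 3 labelled FFC, which the series calls biological replicates. MASH usually abbreviates metabolic dysfunction-associated steatohepatitis and FFC a diet of fat, fructose and cholesterol, though the labels spell out neither. Strain, age, length of feeding and the sort were not given in the sources used here.

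Most of these genes are known from myeloid cells. Lilrb4a encodes an immunoglobulin-like receptor whose cytoplasmic motifs inhibit activation of macrophages, mast cells and, once activated, lymphocytes. Cd14 encodes the co-receptor that hands lipopolysaccharide to Tlr4 and its partner Ly96, and Ms4a4a a membrane-spanning protein of macrophages. Ly6c1 encodes a lipid-anchored surface antigen related to the one by which inflammatory monocytes are sorted, and endothelium and memory T cells carry this antigen too. Pf4 encodes the chemokine CXCL4 of platelet granules, which macrophages can also make. Pros1 encodes protein S, an anticoagulant that also bridges dying cells to the receptors Tyro3 and Mertk, and that hepatocytes, endothelium and, in mice, activated T cells secrete.

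Each deposited value was a log2 level that holds a whole count and 1 multiplier shared by all genes of its library. Libraries summed to between 623212 and 900322 counts. The multipliers were 0.707 to 1.10 in control and 1.11 to 1.26 in MASH, so that each MASH library was scaled up more than each control library. All 6 genes were among the 748 genes tested. The median tested gene was 0.43 (log2) higher in MASH on the deposited scale, and 0.04 higher after each library was centred on its own median, so both scales are given. T cell markers were present in all libraries, Cd3e averaging 2056 counts in control against 1844 in MASH, and Cd4 1057 against 1294. No gene of the table stood at 0, the lowest count in any library being 6.

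Before the values, the regions in front of the genes that moved furthest apart are shown, to set Pf4 and Ms4a4a, which stood higher in MASH, beside Pros1, which stood lower. The 250 bases before the annotated start were taken from RefSeq (GRCm38.p6), which matched 4 of the 6 genes in the table used. Capitals mark matches to any of 6 motifs, named after the lines, which were searched on both strands with overlapping matches counted.
Pf4, chr5:90772185-90772434, + strand: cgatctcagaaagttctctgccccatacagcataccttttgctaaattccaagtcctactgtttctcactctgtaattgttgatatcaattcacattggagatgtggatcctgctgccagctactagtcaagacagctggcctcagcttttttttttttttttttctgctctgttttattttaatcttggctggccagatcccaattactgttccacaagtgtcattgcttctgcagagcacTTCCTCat
Ms4a4a, chr19:11375238-11375487, + strand: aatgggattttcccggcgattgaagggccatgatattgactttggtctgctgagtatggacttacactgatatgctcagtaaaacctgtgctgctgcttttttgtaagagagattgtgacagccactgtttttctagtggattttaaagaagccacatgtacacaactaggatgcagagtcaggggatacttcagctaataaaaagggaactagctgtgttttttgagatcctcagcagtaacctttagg
Pros1, chr16:62854057-62854306, + strand: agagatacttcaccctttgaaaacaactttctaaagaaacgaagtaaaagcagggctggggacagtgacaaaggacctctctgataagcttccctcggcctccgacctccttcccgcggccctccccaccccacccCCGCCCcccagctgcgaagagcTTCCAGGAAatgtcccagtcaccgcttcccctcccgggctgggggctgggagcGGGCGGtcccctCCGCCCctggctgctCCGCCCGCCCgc

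The Pf4 window held 1 PU.1-type match, 8 bases before the start, and the Ms4a4a window held none of the 6 motifs. The PU.1-type motif, spelled GAGGAA, was held by 23.3% of 32851 windows of the same length. The GATA-type motif AGATAA was held by 9.99% of them. The interferon-related motifs TTCNNNGAA (GAS) and GAAANNGAA (ISRE) were held by 7.02% and 7.13%. The SP1-type motif GGGCGG was held by 32.7%, and the TATA motif, spelled TATAAA, by 12.4%. The Pros1 window was built otherwise, with 5 SP1-type matches, some overlapping, and 1 GAS match at 92 bases before the start. It held 15 CpG dinucleotides at 64.4% GC, against 1 CpG at 41.2% GC for Pf4 and 2 at 42% for Ms4a4a. The median window had 6 CpG dinucleotides and 52.4% GC. The first of both Ly6c1 windows held 1 PU.1-type match, 1 TATA match and 1 CpG dinucleotide at 48.4% GC.

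The platelet and macrophage chemokine gene Pf4 had the largest difference of the 6 on the deposited scale, from control counts that were not above background, as given after its values. In bulk RNA, for it as for the other genes, fewer cells of a type and less RNA per cell cannot be told apart. On the log2 scale the controls, numbered 1 to 3, read 6.04, 5.94 and 6.63, whereas the MASH libraries in the same order read 9.12, 9.21 and 8.02. Each MASH library lay above each control library, and MASH 3 was the lowest of the MASH group. The control mean was 6.20 ± 0.37 and the MASH mean 8.79 ± 0.66 (SD, n = 3 per group), which is 5.98-fold higher in MASH and 4.58-fold after centring. By size, this difference was in place 4 from the top of the 748 genes. Behind it stood 85, 87 and 90 counts among the controls, against 474, 469 and 233 with MASH, with exact Poisson 95% intervals of 67.9 to 105 for the smallest and 204 to 265 for MASH 3, which cover counting error only.

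The control level of Pf4 lay within the range of genes used chiefly in other organs. A floor set at the mean plus 2 SD of 4 genes of other organs such as Tg and Ins2 stood at 142 to 156 counts in the control libraries. Pf4 lay under it in all 3 control libraries and above the MASH floors of 184 to 198 counts in all 3 MASH libraries. The other 5 genes exceeded the floor in all 6 libraries. With values under the floor raised to it, Pf4 differed by 1.80 (log2) in place of 2.58, which is less than the 2.06 of Ms4a4a under the same floor.

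Ms4a4a, the membrane protein gene of macrophages, read 7.53, 7.88 and 8.73 (log2) among the controls, against 10.27, 10.93 and 9.11 with MASH. The groups did not overlap, but control 3 (386 counts) and MASH 3 (495 counts) lay close, while MASH 1 and MASH 2 held 1050 and 1545 counts. Control averaged 8.05 ± 0.62 and MASH 10.10 ± 0.92 (SD, n = 3 per group), a 4.16-fold difference, or 3.18-fold after centring. After centring, MASH 3 alone stood 0.93 (log2) above the control mean, and MASH 1 and 2 together 2.04 above it.

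Lilrb4a, the inhibitory receptor gene, was the most even within the MASH group of the genes that stood higher. The controls read 10.41, 10.70 and 11.34 (log2), and the MASH libraries 12.56, 12.51 and 12.24. All MASH libraries lay within a narrow band above the control group, at 12.43 ± 0.17 against 10.82 ± 0.48 (SD, n = 3 per group). The difference was 3.06-fold, and 2.34-fold after centring. In contrast to Ms4a4a and Pf4, centred Lilrb4a in MASH 3 was 0.09 (log2) above the mean of MASH 1 and 2, where Ms4a4a stood at -1.11 and Pf4 at -0.76. By rank within each library, from the highest of 750 genes, Lilrb4a held places 102, 89 and 64 among the controls, against 19, 24 and 21 with MASH. Lilrb4b is a close paralog, and since probe sequences were not used here, signal from it cannot be told apart.

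Cd14, the co-receptor gene for lipopolysaccharide, did not follow them. The controls read 8.31, 7.88 and 8.87 (log2), against 8.55, 8.87 and 8.89 with MASH, so that the groups overlapped. The means were 8.35 ± 0.50 and 8.77 ± 0.19 (SD, n = 3 per group). That difference of 0.42 (log2) was close to the shift of the median gene, and ranked 378th of 748. After centring it was 0.03 and after quantile normalization -0.0010. Counts ran from 333 to 424 among the controls and from 319 to 425 with MASH.

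Ly6c1 was among the most counted genes of every library and, on the deposited scale, stood apart in 1 of them. Among the controls it read 13.24, 13.31 and 13.07 (log2), while MASH gave 13.29, 12.98 and 11.61. MASH 1 lay within the control range, MASH 2 just below it, and MASH 3 far below. The means were 13.21 ± 0.12 and 12.63 ± 0.90 (SD, n = 3 per group), a difference of -0.58 (log2), and without MASH 3 it was -0.07. Ly6c1 held places 9 to 14 from the top in the other 5 libraries and place 43 in MASH 3. The controls held 12510, 14378 and 7820 counts, against 8532, 6411 and 2808 with MASH. After centring the difference was -0.96, with the groups still overlapping, and without MASH 3 the centred difference was -0.58. Ly6c2 is a close paralog, whose signal cannot be told apart here for the same reason.

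Pros1, the protein S gene, stood lower in MASH. The controls read 10.41, 10.05 and 10.17 (log2), while MASH gave 8.71, 8.60 and 9.68. Every MASH library lay below every control library, with MASH 3 nearest to the control group. The means were 10.21 ± 0.18 and 8.99 ± 0.60 (SD, n = 3 per group), or 2.32-fold higher in control and 3.04-fold after centring. From the bottom of the 748 genes the difference was in place 4. Counts ran from 1044 to 1760 among the controls and from 306 to 736 with MASH, and the centred difference from control was -0.66 (log2) in MASH 3 against -2.07 in the mean of MASH 1 and 2.

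**Figure D1:**
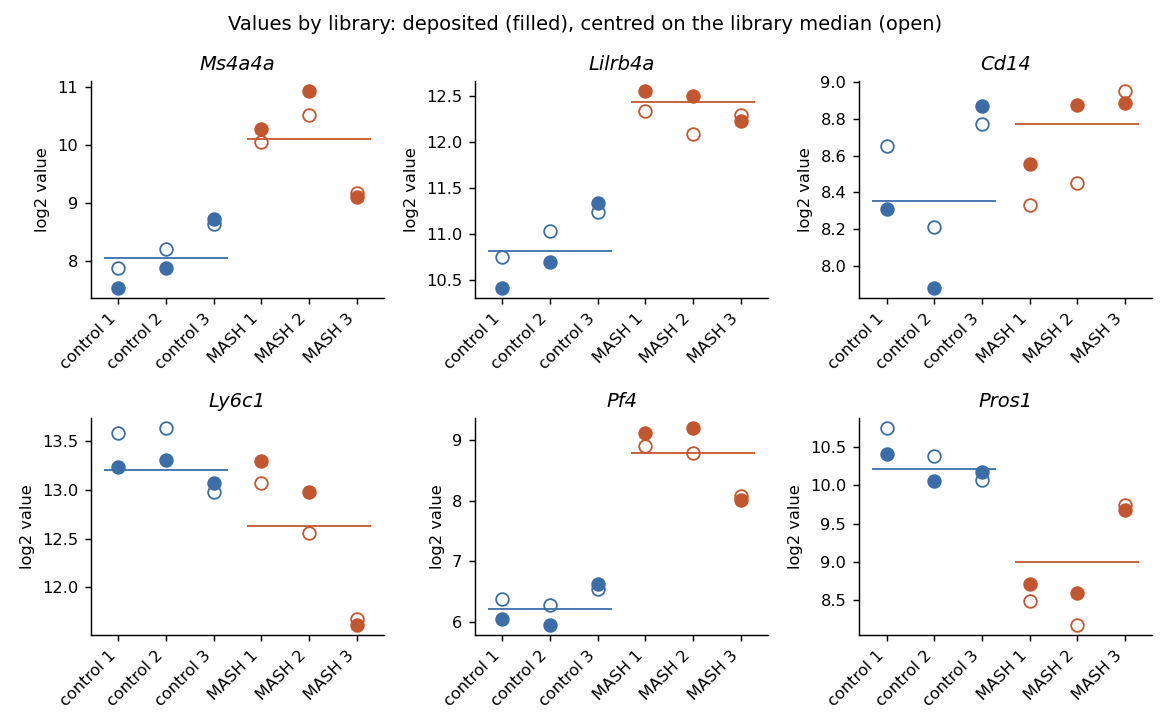
Log2 values of the 6 genes in each library (x axis: library; y axis: log2 value, with its own range in each panel); filled points are deposited values, open points are centred on the library's median, and lines are means of the deposited values in each group of 3. Ms4a4a, Lilrb4a and Pf4 are higher and Pros1 lower in all 3 MASH libraries, Cd14 overlaps, and Ly6c1 is low in MASH 3 (11.61).

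Counted together, 3 of the 6 genes lay wholly higher and 1 wholly lower in MASH, on the deposited scale and after centring. Of all tested genes 34.4% lay wholly higher and 4.28% wholly lower on the deposited scale, and 28.2% and 16% after centring. Since these differences chose the genes, nothing is read from that count.

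**Figure D2:**
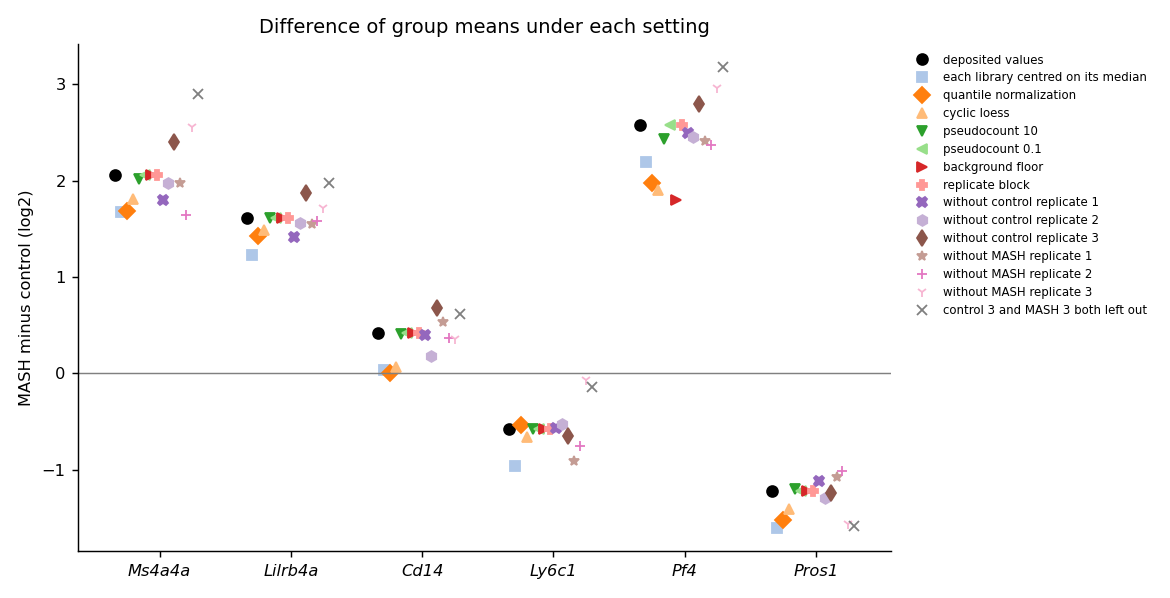
MASH minus control (y axis, log2) for each of the 6 genes (x axis) on the deposited values and under 14 alternatives, with 1 symbol per setting. Pf4 ranges from 1.80 to 3.18, Ms4a4a from 1.64 to 2.90 and Pros1 from -1.60 to -1.02. Cd14 reaches -0.0010, and Ly6c1 reaches -0.07 on the deposited scale without MASH 3.

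The ratio of a pair of these genes within a library does not depend on the library's scale factor. Ratios restate the values that chose these genes, and are given as a description. Of the 15 pairs, 11 had ratios that did not overlap between the groups, beside 41.4% of the 279378 pairs of tested genes, and nothing is read from that count. On the deposited values the widest was Pf4 over Pros1, at log2 -4.37, -4.11 and -3.54 among the controls, against 0.42, 0.62 and -1.66 with MASH, a difference of 3.80 or 13.9-fold. With Pf4 raised to the background floor it was 3.02, less than Ms4a4a over Pros1. Ms4a4a over Pros1 differed by 3.27 and Lilrb4a over Pros1 by 2.83. In each of these 3 ratios MASH 3 lay between the control libraries and the other MASH libraries.

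Cd14 and Pros1, which differ in role, also parted. Cd14 over Pros1 stood at -2.10, -2.17 and -1.30 among the controls, against -0.15, 0.28 and -0.79 with MASH, a difference of 1.64. The ratio of Cd14 to Ms4a4a turned the other way, Ms4a4a over Cd14 being 1.64 higher in MASH. The 4 pairs that overlapped were Ms4a4a over Lilrb4a, Ms4a4a over Pf4, Cd14 over Ly6c1 and Ly6c1 over Pros1. The last of these was 2.83, 3.26 and 2.91 in control, 4.59 and 4.39 in MASH 1 and MASH 2, and 1.93 in MASH 3, so that MASH 3 lay on the opposite side of the control group from the other MASH libraries.

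MASH 3 therefore differed from its group in several of these genes at once, in opposite directions. After centring, MASH 3 minus the mean of MASH 1 and 2 was -1.11 for Ms4a4a, -1.14 for Ly6c1 and -0.76 for Pf4, but 1.41 for Pros1 and 0.56 for Cd14. Over the 748 genes this quantity had a median of 0.05 and quartiles of -0.22 and 0.34. The value of Pros1 was at percentile 99.2 and that of Ly6c1 at 4.01. Control 3 also departed from the mean of control 1 and 2 after centring. It stood at 0.60 for Ms4a4a, 0.35 for Lilrb4a, 0.34 for Cd14 and 0.21 for Pf4, but -0.64 for Ly6c1 and -0.50 for Pros1. The quartiles of that quantity over the 748 genes were -0.22 and 0.28. The summed macrophage markers were also lowest in MASH 3 within its group, and their part in the result was not tested.

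Markers of macrophages, Kupffer cells and monocytes moved in the same libraries as Ms4a4a and Pf4. Of 28 genes listed 11 were measured, of which 6 rose in limma's moderated test (Benjamini-Hochberg adjusted over 748 genes at 0.05) and 0 fell, with 8 and 0 at an unadjusted p under 0.05 and 6 and 0 in voom. Over all tested genes 17.4% passed as higher and 0.936% as lower. The list's median difference was 1.47 (log2), beside 0.43 over all genes. After centring 6 rose and 0 fell, with a median of 1.09, against 14.4% and 4.81% over all genes. The summed level of the 11, centred, was 10.73 to 11.39 in control and 11.57 to 12.49 in MASH.

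The genes that rose are complement, Fc receptor and adhesion genes of these cells. C1qa, a chain of the complement initiator C1q, rose by 2.26 ± 0.44 (log2, SE; limma adjusted p = 0.027). C1qb, another chain, rose by 1.98 (limma adjusted p = 0.030). The Fc receptor genes Fcgr4 and Fcgr1 rose by 2.07 and 2.12 (limma adjusted p = 0.024 and 0.030), Itgam, the integrin CD11b, by 1.63 and Siglec1, a sialic acid-binding receptor, by 1.37 (limma adjusted p = 0.031 and 0.030). The floor from genes of other organs lay at or above all 3 control counts of Fcgr4 and Itgam and 2 of 3 of C1qa. The sizes of these differences therefore rest on control values not above background. Itgam also lay at or under the floor in 1 MASH library. Siglec1 lay under it in all 6 libraries, and C1qb and Fcgr1 above it in all 6. Cd68, a lysosomal marker, differed by 0.93 (limma adjusted p = 0.22) and Spi1, the gene of PU.1, by 0.79 (limma adjusted p = 0.19).

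These calls changed with the library left out. Of the 11 genes 10 passed without control 3 and 7 without MASH 3, while 0 passed in limma without control 1, control 2, MASH 1 or MASH 2, where 6 or 7 had an unadjusted p under 0.05. After quantile normalization 4 of 11 passed as higher and 0 as lower, against 4.01% and 3.07% over all genes.

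To set the 6 genes against these markers, each was divided by the summed level of the list in its own library, a quantity chosen after the values were seen. Over the macrophage list Ms4a4a varied by 0.87 (log2) from the lowest to the highest of the 6 libraries, the narrowest of the 6 genes, and was still 0.53 higher in MASH with groups apart. Pf4 was 1.06 higher, also apart. Lilrb4a overlapped, the control mean being 0.04 ± 0.19 and the MASH mean 0.13 ± 0.57 (SD, n = 3 per group). For Cd14 MASH minus control was -1.10, with MASH 3 (-2.622) next to control 3 (-2.616), for Ly6c1 -2.10 and for Pros1 -2.74, each lower in MASH with groups apart.

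Over the summed T cell identity genes the picture was closer to that of the centred values. Pf4 was 2.25 higher in MASH, Ms4a4a 1.73 and Lilrb4a 1.29, with groups apart. For Ms4a4a the groups were nearly joined, control 3 at -5.289 and MASH 3 at -5.277. Pros1 averaged -3.86 ± 0.10 over the controls and -5.40 ± 0.61 over the MASH libraries (SD, n = 3 per group), a difference of -1.54. Ly6c1 differed by -0.90, with groups apart by a small margin (control 3 at -0.948 and MASH 1 at -1.04). Cd14 differed by 0.09 and overlapped. Of 10 T cell identity genes measured, Cd3g and Cd4 rose on the deposited scale (limma adjusted p = 0.043 and 0.044) and 0 fell. At an unadjusted p under 0.05, 3 rose and 0 fell, and in voom 2 and 0. These calls stand beside 17.4% higher and 0.936% lower over all tested genes. The list's median difference was 0.24 (log2), under the 0.43 of all genes, and -0.14 after centring, beside 0.04. After centring 0 rose and 1 fell in limma, beside 14.4% and 4.81% of all genes, with 0 higher and 1 lower at an unadjusted p under 0.05. The summed level of the list overlapped, at 13.93 to 14.52 in control and 14.04 to 14.45 in MASH.

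**Figure D3:**
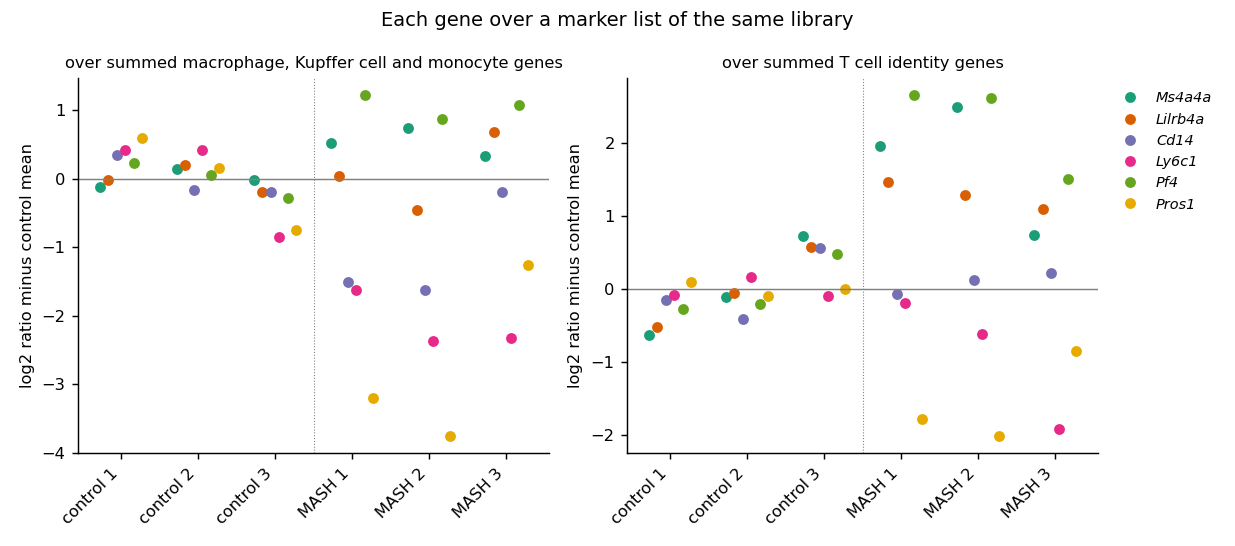
Log2 ratio of each of the 6 genes to the summed level of the macrophage, Kupffer cell and monocyte list (left) or the T cell identity list (right) in the same library, minus the control mean (y axis), by library (x axis), with 1 colour per gene. Pf4 and Ms4a4a stay above 0 in MASH on the left and Pros1 lies lowest in MASH 1 and 2, whereas on the right the Cd14 groups overlap.

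The genes nearest in pattern are given as a description, since likeness restates the values that chose the 6 genes. Likeness was the root mean square difference over the 6 libraries, on values centred on the library median and on each gene's mean. It was not scaled for the size of a gene's difference, so genes with large rises lie near each other. Nearest to Ms4a4a were C1qb (0.18), Fcgr4 (0.18) and C1qa (0.19), against a median of 0.97 over all genes. Pf4 lay nearest to C1qa (0.27), Fcgr4 (0.28) and the chemokine gene Ccl8 (0.28). Between themselves Ms4a4a and Pf4 stood at 0.38, the closest of the 15 pairs, and Pf4 and Pros1 at 2.05 the farthest.

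The other 4 genes had no gene of the macrophage list among their nearest. Lilrb4a lay nearest to the interferon-induced gene Ifitm1 (0.17), the lymphocyte receptor gene Cd96 (0.18) and the chemokine gene Ccl21a (0.20). Ly6c1 lay nearest to the Th2 cytokine gene Il4 (0.16), the chemokine gene Ccl7 (0.19) and the matrix gene Thbs1 (0.27), which were also low in MASH 3. Pros1 lay nearest to Ccr7 (0.25), the receptor that guides naive T cells to lymph nodes, then to Cxcl5 (0.41) and Il4ra (0.46). Cd14 lay nearest to C8g (0.10), Rnaseh2a (0.10) and Gucy1b1 (0.11), genes whose centred differences were -0.02, 0.11 and 0.15. By this measure, of the 6 genes called myeloid, Ms4a4a and Pf4 lay nearest to macrophage-list genes, and nothing is read from that.

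**Figure D4:**
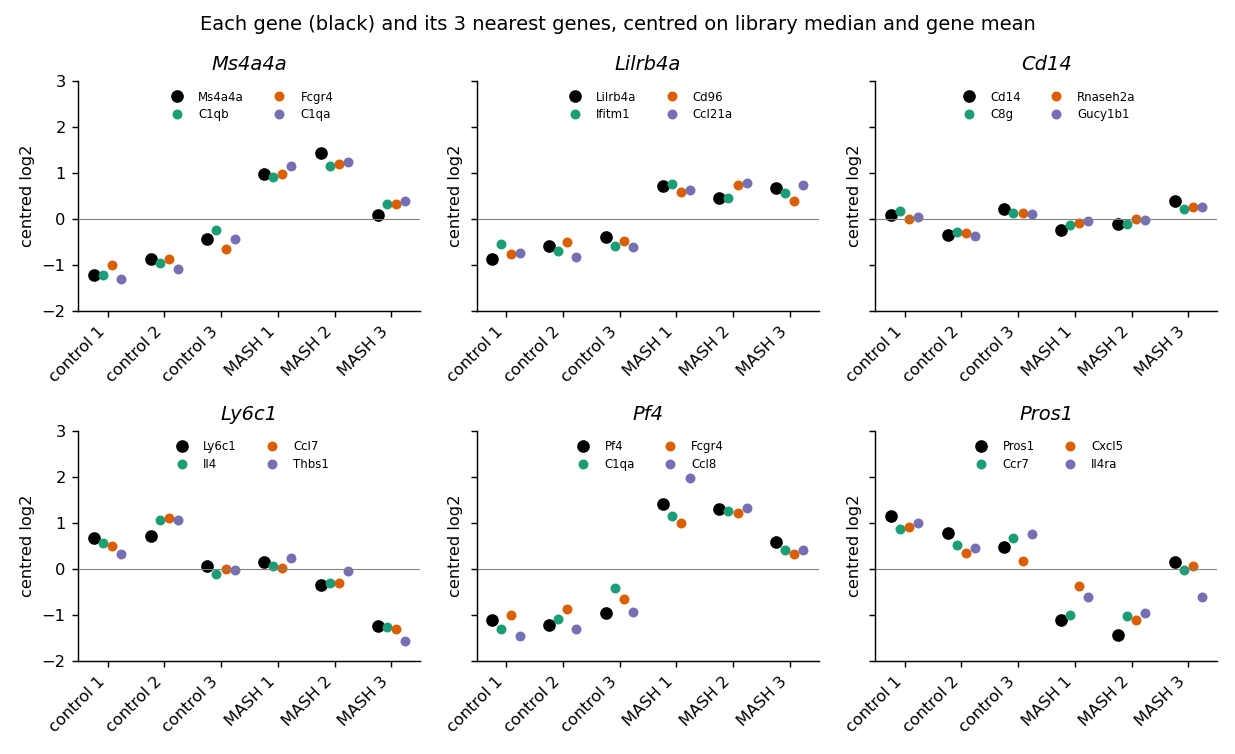
Centred log2 values (y axis) of each of the 6 genes (black) and its 3 nearest genes (coloured) by library (x axis). The Ms4a4a and Pf4 panels show C1qa and Fcgr4, all lower in MASH 3 than in MASH 1 and 2, and the Ly6c1 panel shows 4 genes at their lowest in MASH 3.

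In the receptor pathway of Cd14 the share of calls was near that of all genes (17.4% higher, 0.936% lower). Of 12 measured genes 2 rose, Lbp, which carries lipopolysaccharide to Cd14, by 0.87 and the adaptor Tirap by 0.86 (limma adjusted p = 0.044 each), and 0 fell, with 4 and 0 at an unadjusted p under 0.05 and 0 and 0 in voom. Lbp lay under the background floor in all 6 libraries, and Tirap at or under it in 2 control and 2 MASH libraries. The receptor Tlr4 differed by 0.72 (limma adjusted p = 0.088) and its partner Ly96 by 0.46 (limma adjusted p = 0.29). The list's median difference was 0.44, beside 0.43 over all genes, and after centring 1 gene passed, Lbp at 0.49. After quantile normalization 0 passed in limma, and 0 had an unadjusted p under 0.05.

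Around Lilrb4a, 4 of 9 inhibitory and paired receptor genes rose and 0 fell, with 7 and 0 at an unadjusted p under 0.05 and 3 and 0 in voom, and a median of 1.09 (log2). Over all genes 17.4% passed as higher. The 4 were Siglec1, the paired receptor Lilra5 (1.09), the inhibitory Fc receptor Fcgr2b (1.37) and Trem1, an amplifier of myeloid inflammation (1.21), with limma adjusted p from 0.030 to 0.044. After centring the same count passed, and after quantile normalization 0 in limma, with 4 at an unadjusted p under 0.05. Ptpn6, the phosphatase SHP-1 recruited by such receptors, differed by -0.08 (limma adjusted p = 0.84). Lilra5 (103 and 156 mean counts in the groups), Siglec1 (66.7 and 126) and Trem1 (84 and 137) lay under the background floor in all 6 libraries, and Fcgr2b above it in all 6. The genes of other organs averaged 97.3 to 154 counts per library, and 2 of the 4 rose, with a median difference of 1.00.

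The relatives of Ms4a4a, Ly6c1 and Pf4 did not share 1 direction. Their calls stand beside 17.4% higher and 0.936% lower over all tested genes, and 14.4% and 4.81% after centring. Among 3 genes of the MS4A family and its partners Fcer1a, the alpha chain of the IgE receptor, rose by 1.05 (limma adjusted p = 0.030). Fcer1a lay at or under the background floor in 3 control libraries and 1 MASH library. Ms4a1, the B cell antigen CD20, differed by -0.55 (limma adjusted p = 0.27) and fell by 0.94 after centring (limma adjusted p = 0.035). Among 3 measured LY6 family genes Ly6g, the neutrophil antigen, rose by 1.22 (limma adjusted p = 0.039), under the background floor in all 6 libraries. Of 7 other CXC chemokine genes Ppbp, which platelets store beside Pf4, rose by 0.94 (limma adjusted p = 0.042). Ppbp held 94 to 157 counts among the controls and 138 to 189 with MASH, and differed by 0.55 after centring (limma adjusted p = 0.083). It lay at or under the floor in 2 control and 2 MASH libraries. It was the only platelet gene measured of 14 listed, and it differed less than Pf4 did (2.58 on the deposited scale). Cxcl9, induced by interferon gamma, differed by -0.93 (limma adjusted p = 0.059) and fell by 1.31 after centring (limma adjusted p = 0.017). The median difference of the 7 CXC chemokine genes was -0.35 (log2), beside 0.43 over all genes, and -0.73 after centring, beside 0.04. After centring 2 of the 7 were higher and 4 lower at an unadjusted p under 0.05.

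Around Pros1 the receptors Tyro3, Axl and Mertk and the related ligand Gas6 were not analysed here. Of 9 coagulation and complement regulator genes Thbd, the thrombomodulin that starts protein C activation, rose by 0.86 (limma adjusted p = 0.044), 0 fell, and 0 passed after centring, with 2 higher and 1 lower at an unadjusted p under 0.05. On the deposited scale 4 rose and 0 fell at an unadjusted p under 0.05, and in voom 0 of the 9 passed. Over all tested genes 17.4% passed in limma as higher and 0.936% as lower on that scale. Thbd lay at or under the floor in 2 control libraries and 1 MASH library. Of 2 measured genes on the list of clearance of dying cells, Havcr2, a receptor of T cells and macrophages, rose by 3.28 from control counts under the floor (limma adjusted p = 0.00065) and passed in all 6 fits with 1 library left out, while Anxa1, which dampens inflammation, differed by 0.74 (limma adjusted p = 0.11).

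Markers of other cells are given beside these results, and their part in them was not tested. Of 9 neutrophil genes 6 rose and 0 fell, beside 17.4% and 0.936% of all genes, and 5 and 0 after centring, beside 14.4% and 4.81%. The 6 were Ltf, Mpo, Elane, Mmp9, Ly6g and Csf3r, by 1.02 to 1.22, of which Ltf, Elane, Mmp9 and Ly6g lay under the background floor in all 6 libraries. Mpo lay at or under it in 3 control libraries, and Csf3r in 2 control libraries and 1 MASH library. S100a8 differed by 0.62 and S100a9 by -0.17 (limma adjusted p = 0.32 and 0.88). After quantile normalization 1 of the 9 passed as higher. Of 5 NK cell genes Klrd1 (1.85) and Ncr1 (1.08) rose, and of 2 dendritic cell genes Xcr1 (1.00). Ncr1 and Xcr1, and Cr2 of the B cells, lay under the floor in all 6 libraries, and differed by sizes near the median of the genes of other organs (1.00). Klrd1 lay at or under the floor in 2 control libraries. Of 8 B cell genes Cr2 rose by 0.85 and 0 fell, with 0 lower for both the neutrophil and the B cell list at an unadjusted p under 0.05 and in voom. After centring the B cell genes Ms4a1 and Tnfrsf13c fell, by 0.94 and 0.93. Of 4 endothelial genes 0 passed in limma or voom, with 1 at an unadjusted p under 0.05, although Tek fell after quantile normalization, by 0.73, and the summed level overlapped (8.89 to 9.09 in control, 8.77 to 9.18 in MASH). Tek lay at or under the floor in 3 control and 3 MASH libraries. Serpina1a was the only gene of the hepatocyte and stellate cell list measured, and differed by 0.57 (limma adjusted p = 0.20).

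**Figure D5:**
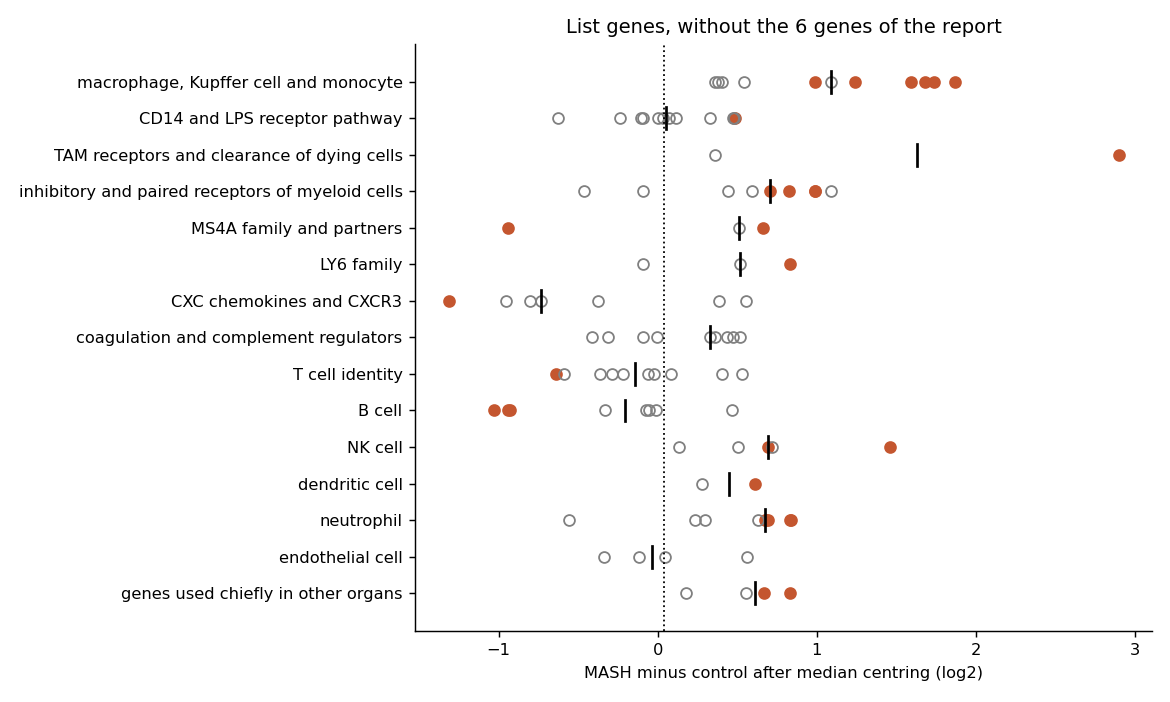
MASH minus control after median centring (x axis, log2) for the genes of each list with at least 2 tested genes (y axis), the 6 genes described here left out; filled points passed limma at an adjusted p of 0.05, bars are list medians and the dotted line is the median of all genes (0.04). The macrophage list has the highest median of the lists with over 2 genes (1.09), and the CD14 pathway list (0.05) lies beside the dotted line.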

How the data were processed

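Total RNA of hepatic CD4 T cells was counted with the nCounter assay, per the labels and the series title. The authors deposited log2 values of 750 genes in 6 libraries and state no normalization in the labels or headers. In every library, 2 to the power of each value was a whole multiple of 1 step, to within 0.02 of a whole number for 100% of values, and dividing by it gave the counts. The factors ran from 0.707 to 1.26.

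The 6 genes and all gene lists were chosen with earlier results of these data known. The 748 genes averaging 20 or more after unlogging were tested with limma 3.58.1 in R 4.3.3 on the deposited values, both groups in 1 fit, two-sided, Benjamini-Hochberg adjusted at 0.05; the script was tested on simulated data. Named were the 6 genes, the 3 nearest genes to each, up to 6 passing genes per list by smallest p, and common markers whatever their values. Spi1, S100a8, S100a9, Ptpn6, Cxcl9, Ms4a1, Anxa1, Serpina1a, Tnfrsf13c and Tek were named after their values were seen. Some list genes are not reported here. Alternatives were median centring, quantile normalization, cyclic loess, pseudocounts of 10 and 0.1, a background floor, other filters, trend and robust eBayes, voom on the recovered counts at the deposited scale, the replicate number as a block and each library left out; control 3 and MASH 3 both left out, and ratios to marker lists, were added after the data were seen.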

Additional observations from a re-analysis of the deposited data

How the results depend on the processing

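Ms4a4a, Lilrb4a and Pf4 stayed higher, and Pros1 and Ly6c1 lower, in MASH under all 14 alternatives run on them. For Ms4a4a, Lilrb4a, Pf4 and Pros1, whose groups did not overlap, leaving out libraries could not change the direction. The replicate block leaves each difference as it was by design. Nothing is therefore read from the count of alternatives. With 1 library left out in turn the log2 difference ranged from 1.64 to 2.55 for Ms4a4a, 1.41 to 1.88 for Lilrb4a, 2.37 to 2.96 for Pf4, -1.56 to -1.02 for Pros1, -0.91 to -0.07 for Ly6c1 (-0.07 without MASH 3) and 0.18 to 0.68 for Cd14 (0.18 without control 2). Cd14 went from 0.42 to 0.033 after median centring and reversed to -0.0010 after quantile normalization, which both remove the shift of the median gene. Lilrb4a stood at 1.23 after centring. Without MASH 3 the median gene was 0.55 higher in MASH on the deposited scale. There Ly6c1 differed by -0.07, but by -0.58 after centring. Pf4 stood at 1.98 after quantile normalization, 1.91 after cyclic loess and 1.80 with the background floor. With control 3 and MASH 3 both left out, Ms4a4a stood at 2.90, Lilrb4a at 1.97 and Pf4 at 3.18.

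The number of genes past limma's test was 137 of 748, and 29 among the list genes. It was 53 and 10 after quantile normalization, 62 and 12 after cyclic loess, 288 and 58 with the floor, and 475 and 68 with control 3 and MASH 3 both left out; the cause was not tested. Leaving out 1 library gave 1 to 289 genes in all and 1 to 51 on the lists, the low counts without control 1, control 2, MASH 1 or MASH 2 and the high ones without control 3 or MASH 3. With the replicate number as a block 1 gene passed in all, also 1 on the lists. Same-numbered libraries did not deviate together (correlations of 0.02, -0.22 and -0.04), so the numbers were not taken as pairs. Counting error limited Pf4 in control most, at 85 to 90 counts.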
